A study of Mus musculus with 18 samples.

Results

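The 10 genes described here, Tenm1, Aff2, Arhgef6, Hdx, Kdm6a, Pola1, Pcyt1b, Rfx2, Pax6 and Six3, are those that the study's work on regulatory variants in X-linked intellectual disability brings together as target genes of the cis-regulatory elements (CRE) it examined or as transcription factors whose sites it considered, with Pax6 serving it as a reference transcript. They were chosen by symbol, not by any measured value, and all 10 were found among the 53468 genes of the count table. The libraries came from 3 mice that carry a single-base knock-in at a CRE of Fmr1 (Fmr1CRE) and 3 wild-type (WT) littermates, all at postnatal day 25 and on a C57BL/6 background. From each of the 6 mice forebrain, midbrain and hindbrain were dissected, giving 18 poly(A) RNA libraries. The Fmr1CRE allele was made in zygotes by CRISPR/Cas9 with a repair template, the study kept multiple independent lines, and which line gave these mice is not stated in the sources used here. The sex of the sequenced mice is not in the labels either, but every library held the Y-linked transcript Uty, at 16.3 to 64.4 CPM (counts scaled to library size), and none held more than 0.705 CPM of Xist, the RNA of the inactive X. Tenm1, Aff2 and the other X-linked genes were not edited in any of these mice. The genotype comparison thus asks whether they differed in mice edited at an element whose predicted target is Fmr1.

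Of the genes, 7 lie on the X chromosome, where males have a single copy and a change of dosage is not buffered by a second allele. Tenm1 encodes a teneurin, an adhesion protein that binds latrophilin receptors across the synapse. Aff2 encodes a nuclear scaffold of the AF4/FMR2 family of transcription elongation factors, and Arhgef6 encodes an exchange factor (alpha-PIX) for the small GTPases Rac1 and Cdc42. Kdm6a encodes a demethylase of lysine 27 of histone H3, Pola1 the catalytic subunit of DNA polymerase alpha, and Pcyt1b an enzyme of phosphatidylcholine synthesis. Hdx encodes a divergent homeodomain protein. The other genes are autosomal and encode transcription factors: Rfx2 acts on genes of cilia through the X-box, Pax6 is used by the eye, the cortex and cerebellar granule cells, and Six3 patterns the anterior forebrain and eye.

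In GRCm38 coordinates (GENCODE M21) Tenm1 spans chrX:42527866-43429126 on the minus strand, Aff2 chrX:69360294-69868037 on the plus strand and Arhgef6 chrX:57231485-57338729 on the minus strand. Hdx spans chrX:111569931-111697079 on the minus strand and Kdm6a chrX:18162575-18279936 on the plus strand. Pola1 (chrX:93304767-93632155, minus strand) and Pcyt1b (chrX:93654863-93749951, plus strand) are transcribed away from each other, with 22.7 kb between them. Rfx2 lies at chr17:56775897-56831013 (minus strand), Six3 at chr17:85613608-85629302 (plus strand) and Pax6 at chr2:105668900-105697364 (plus strand). Six3 overlaps an antisense gene, Six3os1, which had a median of 91.5 counts a library, and reads of the overlap cannot be told apart without strand.

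The edit that defines the Fmr1CRE genotype is given by the guide RNA, shown 5′ to 3′ with its protospacer adjacent motif in capitals, and by the repair template, in which the capital marks the changed base.
Fmr1CRE guide: accttgtgtctatgactattTGG
Fmr1CRE repair template: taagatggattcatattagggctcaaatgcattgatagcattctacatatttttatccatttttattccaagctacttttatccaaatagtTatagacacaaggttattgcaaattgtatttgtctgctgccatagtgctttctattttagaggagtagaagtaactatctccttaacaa
The guide and its motif, 23 bases together, match the reverse complement of the 180-base template at all positions but 1, G14A, counted from the 5′ end of the guide. On the strand printed this is C92T, counted from the 5′ end of the template.

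The promoters of the 10 genes were read from RefSeq (GRCm38.p6) as the 250 bases before each annotated start, 13 windows in all. As Rfx2 is one of the genes, the windows were searched on both strands for GTTGCC, an arm of the X-box that RFX factors bind. It occurred in 4 of the 13 windows and in 10.4% of 32851 windows of this length. These 4 windows are printed 5′ to 3′ on the strand of the gene, with matches in capitals.
Six3, chr17:85620584-85620833, plus strand: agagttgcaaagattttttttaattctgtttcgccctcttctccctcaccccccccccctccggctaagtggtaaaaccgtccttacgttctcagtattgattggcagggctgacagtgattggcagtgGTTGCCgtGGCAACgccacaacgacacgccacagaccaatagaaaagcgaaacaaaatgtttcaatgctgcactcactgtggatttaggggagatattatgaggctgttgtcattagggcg
Pax6, chr2:105668646-105668895, plus strand: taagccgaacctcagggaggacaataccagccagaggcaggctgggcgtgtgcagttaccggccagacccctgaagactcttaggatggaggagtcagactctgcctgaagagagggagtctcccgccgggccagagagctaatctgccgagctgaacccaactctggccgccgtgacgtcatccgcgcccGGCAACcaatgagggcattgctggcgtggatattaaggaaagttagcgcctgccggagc
Rfx2, chr17:56831009-56831258, minus strand: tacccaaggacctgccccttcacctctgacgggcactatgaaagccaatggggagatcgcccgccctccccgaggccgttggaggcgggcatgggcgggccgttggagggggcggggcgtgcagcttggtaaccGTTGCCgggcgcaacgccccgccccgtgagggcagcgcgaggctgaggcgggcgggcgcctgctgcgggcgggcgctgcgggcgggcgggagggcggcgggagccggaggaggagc
Pcyt1b, chrX:93654613-93654862, plus strand: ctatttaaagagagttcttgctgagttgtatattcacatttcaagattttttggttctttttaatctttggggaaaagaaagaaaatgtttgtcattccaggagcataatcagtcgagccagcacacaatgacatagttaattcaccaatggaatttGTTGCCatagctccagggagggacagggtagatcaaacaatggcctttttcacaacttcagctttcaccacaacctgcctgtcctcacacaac
The Six3 window held a match on each strand, 2 bases apart, so that it reads GTTGCC, any 2 bases and then GGCAAC. That arrangement stood in 26 windows of all 32851, or 0.0791%. The start behind this window is that of transcript Six3-203, whereas most Six3 transcript in these libraries was assigned to Six3-202, which starts upstream. Letters that match are a description of the windows only.

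Read depth was even, with 22455512 to 28061185 counts a library. Forebrain and hindbrain libraries matched their labelled region in marker genes. The 10 forebrain markers (Tbr1, Drd1 and others) summed to 564 to 908 CPM in forebrain, 320 to 528 in midbrain and 87.6 to 118 in hindbrain. The 12 hindbrain markers (Hoxb3, Hoxa5, Gabra6 and others) summed to 0.881 to 13.96, 121 to 335 and 643 to 1099 CPM. The midbrain libraries thus held transcripts of both neighbouring regions, and a sum of midbrain markers is not reported here. Fmr1, the predicted target gene of the edited element, had means of 75.8 CPM in Fmr1CRE and 77.7 in WT forebrain. The means were 68.1 and 67.7 in midbrain and 64.7 and 58.2 in hindbrain. With edgeR adjusted p of 0.996, 0.995 and 0.906, Fmr1 does not check the labels of genotype. The forebrain libraries of the pair numbered replicate 3 stood apart: of 10 genes that differed over 4-fold in the same direction between these mice in both midbrain and hindbrain, 9 went the opposite way in forebrain. Across the other pairs of an Fmr1CRE and a WT mouse this share was 28.6% to 62.5%, of 7 to 18 genes. Whether the pair's forebrain libraries, or those of its other regions, were exchanged cannot be told from these values, and calls between regions that were lost without this pair are given with their values.

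Length-corrected transcript levels (TPM) were low for all 10 genes and serve here to order genes within a region. In hindbrain the order by mean TPM ran from Pax6, at 9.85 ± 1.86 (SD, n = 6), and Pcyt1b, at 7.84 ± 2.19, through Kdm6a at 5.54 ± 0.936, Arhgef6 at 4.13 ± 0.914, Pola1 at 2.98 ± 0.603 and Tenm1 at 2.32 ± 0.279, down to Aff2 at 0.906 ± 0.406, Hdx at 0.748 ± 0.123, Rfx2 at 0.341 ± 0.101 and Six3 at 0.0102 ± 0.00920. In this order each gene overlapped with the next over the 6 libraries, except Tenm1 with Aff2, Hdx with Rfx2 and Rfx2 with Six3. In forebrain Pcyt1b stood highest, at 6.62 ± 2.33 TPM, followed by Kdm6a at 4.25 ± 0.753, while Pax6 at 2.67 ± 0.273, Arhgef6 at 2.38 ± 0.271, Six3 at 2.24 ± 0.854 and Tenm1 at 2.19 ± 0.648 overlapped with each other. In midbrain Pcyt1b, at 9.22 ± 1.70 TPM, was followed by Kdm6a at 6.06 ± 0.704, and Pax6 at 4.69 ± 1.25, Arhgef6 at 4.63 ± 0.833 and Tenm1 at 4.55 ± 0.796 overlapped. Rfx2 was the lowest in forebrain and midbrain, at 0.460 ± 0.0625 and 0.439 ± 0.0612 TPM.

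**Figure D1:**
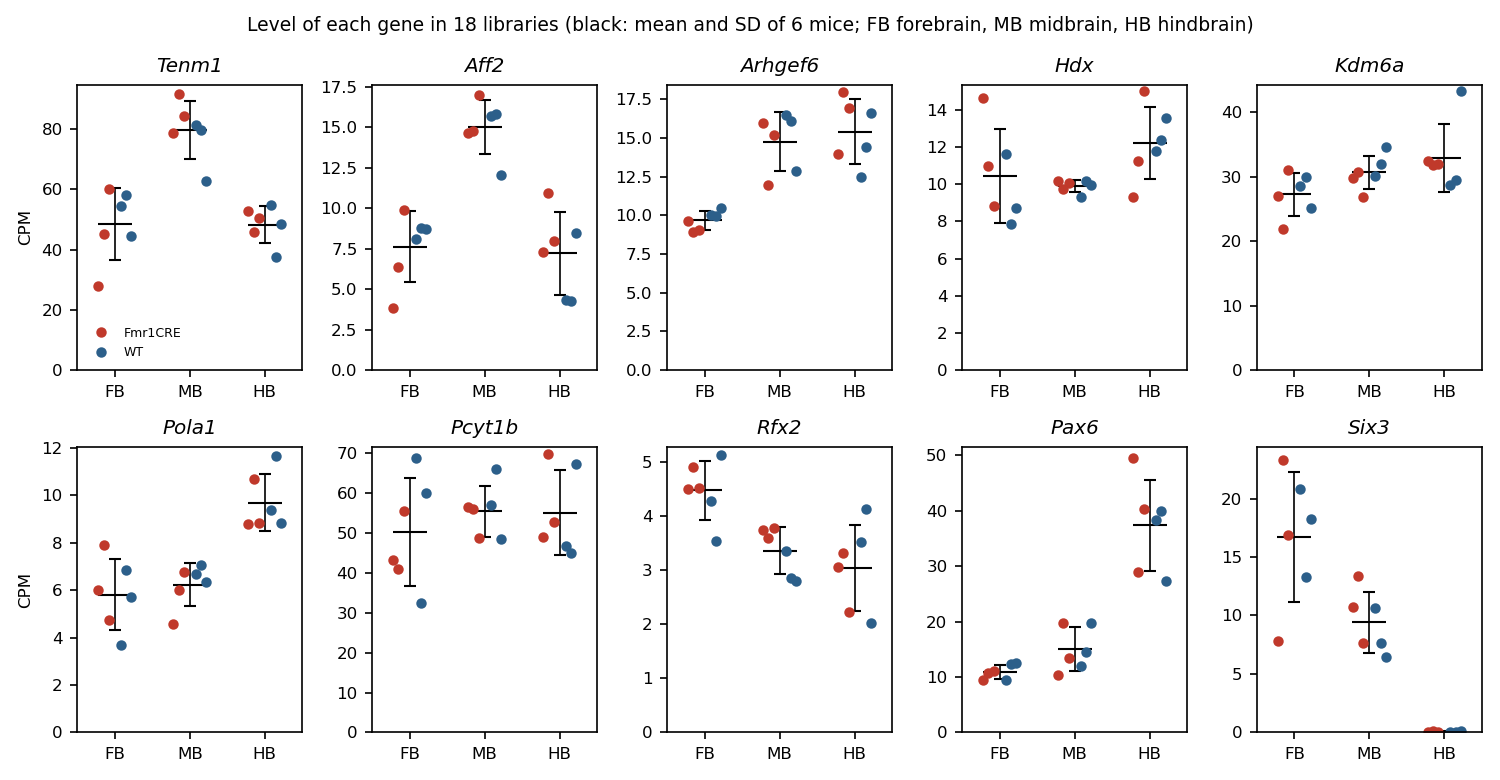
Level of each gene in CPM in the 18 libraries, by region, with Fmr1CRE mice in red, WT mice in blue and the mean and SD of 6 mice in black. Tenm1 and Aff2 peaked in midbrain, Pax6 and Pola1 in hindbrain, and Six3 was at 0.144 CPM or less in every hindbrain library.

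Regional differences were tested first, in a fit of all 18 libraries averaged over genotype. Of the 10 genes, 8 differed between at least one pair of regions and 2, Hdx and Pcyt1b, between none, where 63.9% of 20363 genes tested differed somewhere. Six3 was called in all 3 comparisons, as 8.91% of genes were. Between forebrain and midbrain 4 of 10 were called, 1 higher and 3 lower in forebrain, where 19.3% of all genes were (9.38% higher and 9.96% lower). Between forebrain and hindbrain 6 of 10 were called, 2 higher and 4 lower in forebrain, beside a background of 51.7% (26.4% higher and 25.3% lower). Between midbrain and hindbrain 5 of 10 were called, 3 higher and 2 lower in midbrain, beside 49.1% (25.1% and 24.0%). Calls of over 2-fold numbered 0, 2 and 3 of the 10 in these comparisons, beside 4.09%, 18.7% and 14.8% of all genes. Regions did not overlap for 3, 4 and 5 of the 10, beside 10.5%, 27.7% and 26.9%, and an unadjusted p under 0.05 was reached by 6 of the 10 in each comparison, beside 32.6%, 57.0% and 55.1%. Their median log2 fold change was -0.16, -0.18 and -0.02 in the 3 comparisons, against 0.02, -0.01 and -0.03 over all genes. The shares in the comparisons with hindbrain are thus close to those of genes at large. In these dissected tissues fewer cells of a type and less RNA per cell cannot be told apart.

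**Figure D2:**
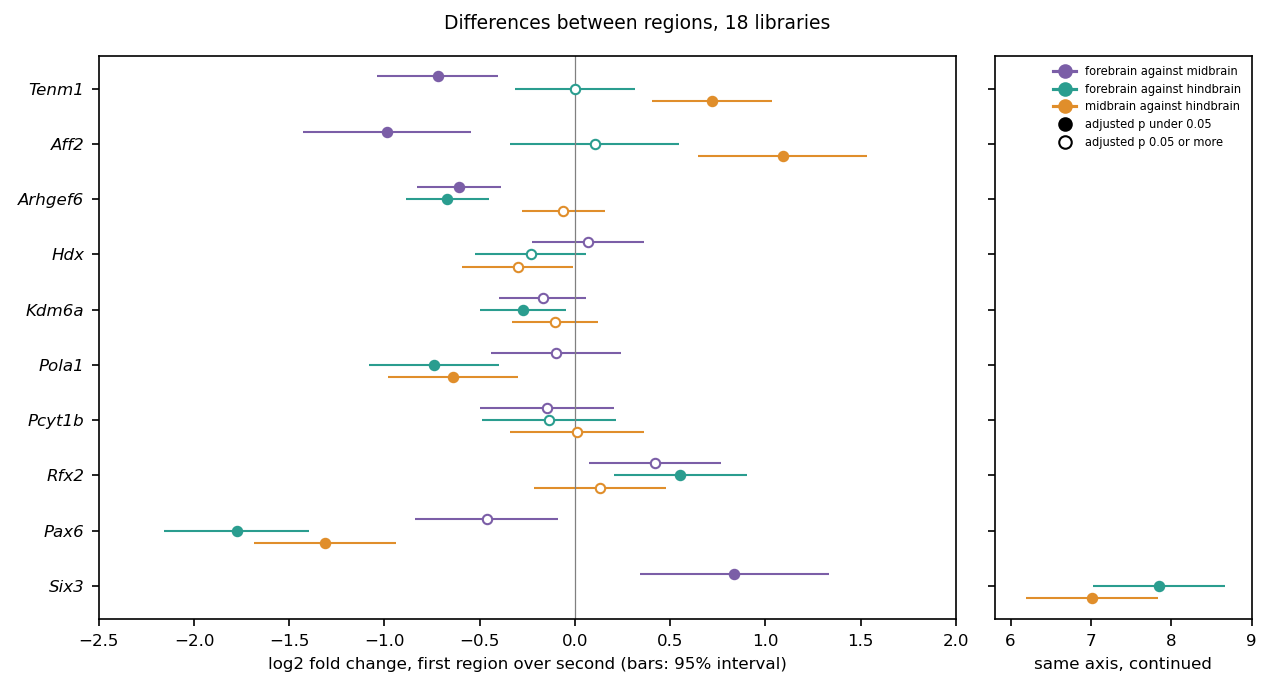
Log2 fold changes between regions with 95% intervals for the 10 genes, in edgeR's fit of 18 libraries, with filled points where the adjusted p was under 0.05. The axis is continued in the right panel for Six3, whose differences from hindbrain were 7.85 and 7.01.

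Tenm1, the teneurin, was highest in midbrain. Its CPM in midbrain were 78.7, 91.6 and 84.4 in the Fmr1CRE mice and 81.5, 79.7 and 62.8 in the WT mice. In forebrain they were 27.96, 45.3 and 60.2 in Fmr1CRE and 54.6, 58.1 and 44.7 in WT, and in hindbrain 52.9, 45.7 and 50.7 in Fmr1CRE and 54.7, 37.6 and 48.4 in WT. Every midbrain library lay above every library of the other regions, while forebrain and hindbrain overlapped throughout. The log2 fold change was -0.72 ± 0.15 (SE) for forebrain over midbrain (edgeR adjusted p = 0.00313) and 0.72 ± 0.15 for midbrain over hindbrain (edgeR adjusted p = 0.000871), whereas forebrain and hindbrain differed by 0.00 with a 95% interval of -0.31 to 0.31. The lowest forebrain value, in Fmr1CRE replicate 1, came from the library that was also lowest for Aff2 and Six3 and lowest of the 6 for the summed striatal markers, at 823 CPM where the median was 1524. Leaving out any 1 mouse, this one among them, kept forebrain below midbrain, at -0.87 to -0.62 (edgeR adjusted p of at most 0.0226). The part of the striatal markers in the Tenm1 difference was not tested.

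The other teneurins and the latrophilins, the receptors they bind, were lower in hindbrain. All 6 of these genes tested (Tenm2, Tenm3, Tenm4, Adgrl1, Adgrl2 and Adgrl3) were higher in forebrain than in hindbrain and all 6 were higher in midbrain than in hindbrain, where 26.4% and 25.1% of all genes were. Their median log2 fold change was 1.48 and 1.40, against -0.01 and -0.03 over all genes. Between forebrain and midbrain Tenm2 and Adgrl3 were lower and Adgrl2 was higher in forebrain, and the remaining 3 were not called. Over all genes 9.96% were lower and 9.38% higher in forebrain. Tenm2 also peaked in midbrain, at 114 CPM there, 51.3 in forebrain and 15.3 in hindbrain. In forebrain over hindbrain Tenm1 was the sole gene of this list that was not called.

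Aff2, the elongation factor scaffold, followed the same order of regions. Its midbrain CPM were 14.6, 14.8 and 17.0 in Fmr1CRE and 15.7, 15.8 and 12.1 in WT mice. Forebrain held 3.83, 6.38 and 9.88 in Fmr1CRE and 8.10, 8.79 and 8.73 in WT, and hindbrain 7.29, 10.9 and 7.96 in Fmr1CRE and 4.34, 4.26 and 8.46 in WT. Midbrain was again above both other regions in every library. The log2 fold change was -0.99 ± 0.21 for forebrain over midbrain (edgeR adjusted p = 0.00370), 1.09 ± 0.21 for midbrain over hindbrain (edgeR adjusted p = 0.000475) and 0.10 ± 0.21 for forebrain over hindbrain (edgeR adjusted p = 0.711). Across the 18 libraries the log2 levels of Tenm1 and Aff2 had a Pearson's r of 0.862, the highest of any pair of the 10 genes, and 0.635 once each region's mean was removed. Within the AF4/FMR2 family Aff1, Aff3 and Aff4 were all higher in midbrain than in hindbrain, where 25.1% of all genes were called higher. Of these relatives only Aff4, at 209 CPM in forebrain and 293 in midbrain, was also lower in forebrain than in midbrain, with a log2 fold change of -0.49 ± 0.15 (edgeR adjusted p = 0.0327).

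Arhgef6, the gene of the Rac1 and Cdc42 exchange factor, was the lowest in forebrain and alike in the other regions over all its transcripts. Its CPM were 9.64, 8.93 and 9.03 in Fmr1CRE and 9.99, 9.96 and 10.5 in WT forebrain. They were 15.96, 11.99 and 15.2 in Fmr1CRE and 16.5, 16.1 and 12.8 in WT midbrain, and 13.97, 18.0 and 16.9 in Fmr1CRE and 12.5, 14.4 and 16.6 in WT hindbrain. No forebrain library reached the lowest of the others. Forebrain was below midbrain by a log2 fold change of -0.61 ± 0.10 (edgeR adjusted p = 0.000672) and below hindbrain by -0.67 ± 0.10 (edgeR adjusted p = 4.90e-05), and midbrain and hindbrain differed by -0.06, with a 95% interval of -0.28 to 0.16. Arhgef6-205, annotated as a retained intron, had mean TPM of 0.709, 1.41 and 1.42 in forebrain, midbrain and hindbrain. Arhgef6-207, a 748-base coding fragment, had 0.733, 1.51 and 1.35. Arhgef6-201, with the longest coding sequence, had 0.406, 0.622 and 0.487. Summed markers of oligodendrocytes rose in the order forebrain, midbrain and hindbrain (median 15069, 19666 and 34624 CPM), and those of microglia fell in that order (median 502, 362 and 276 CPM). Their part in the Arhgef6 difference was not tested. Of 8 partners and relatives in PIX, GIT and PAK signalling, 1 was called higher and 3 lower in forebrain than in midbrain, and 3 higher and 1 lower than in hindbrain, beside 9.38%, 9.96%, 26.4% and 25.3% of all genes. Git2, a scaffold that binds PIX proteins, was the 1 lower than in hindbrain, and it was lower in forebrain in both comparisons, with log2 fold changes of -0.45 ± 0.10 and -0.38 ± 0.10. The close relative Arhgef7 (beta-PIX) went the other way, at 146 CPM in forebrain and 106 in hindbrain (log2 fold change 0.48 ± 0.12, edgeR adjusted p = 0.00327).

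**Figure D3:**
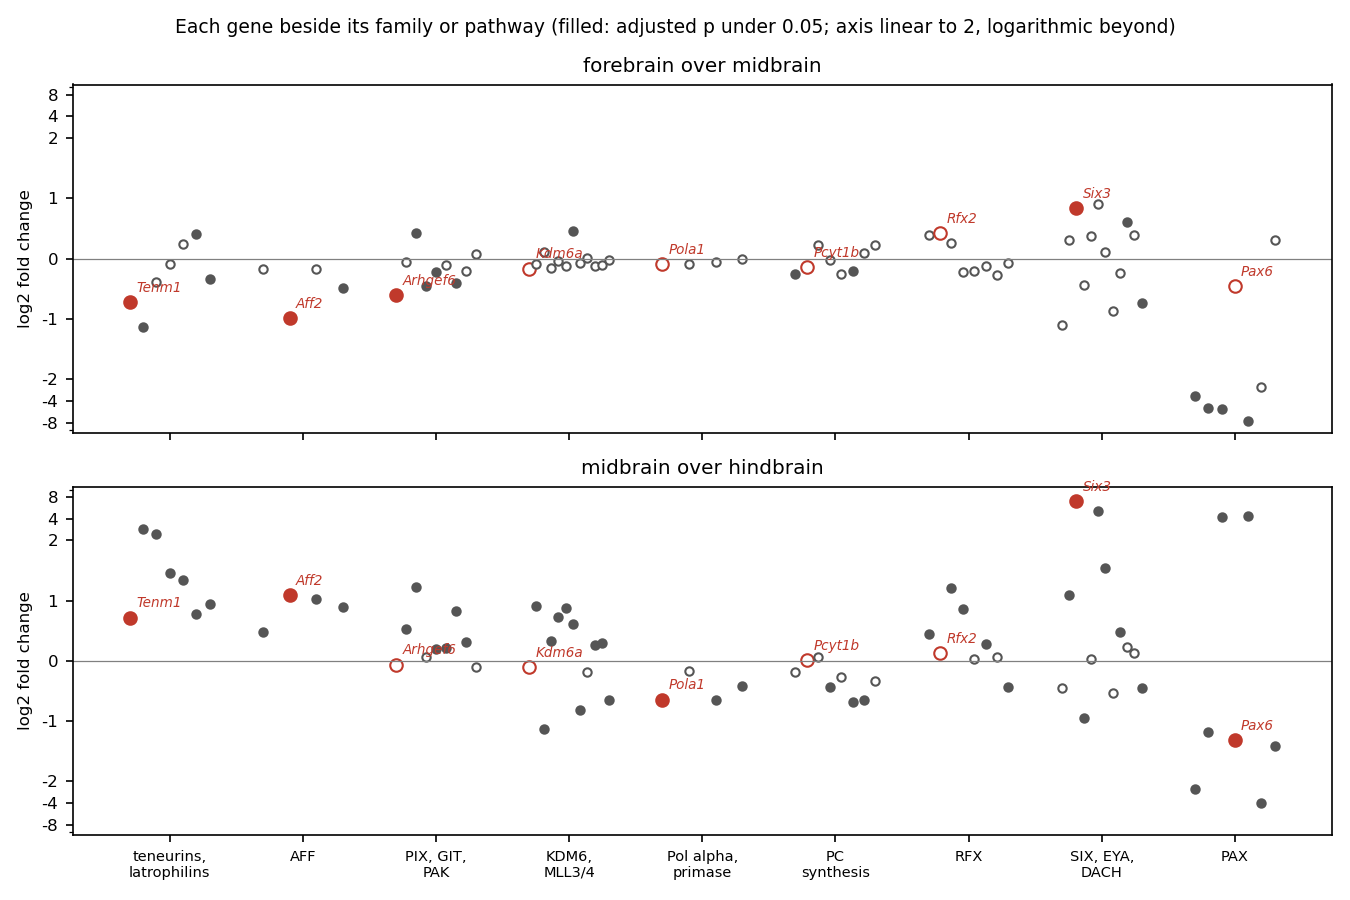
Log2 fold changes of the 10 genes (red, named) and of the other members of their families or pathways (grey) for forebrain over midbrain and midbrain over hindbrain. The axis is linear up to 2 and logarithmic beyond, filled points had an adjusted p under 0.05, and teneurins with latrophilins all lay above 0 for midbrain over hindbrain.

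Kdm6a, the histone demethylase, differed little between regions. Its CPM had a lowest, median and highest value of 21.9, 27.8 and 31.0 in forebrain, 26.8, 30.4 and 34.7 in midbrain and 28.7, 31.9 and 43.3 in hindbrain. All regions overlapped. Forebrain over hindbrain gave a log2 fold change of -0.27 ± 0.11 (edgeR adjusted p = 0.0423), and this call did not hold without WT replicate 3, whose hindbrain value of 43.3 CPM was the highest (-0.13, edgeR adjusted p = 0.270), nor without Fmr1CRE replicate 1 (0.105) or 2 (0.186), nor without both mice of replicate 3 (0.0896) or without a filter on low counts (0.0784). Among 11 relatives and subunits of the MLL3 and MLL4 complexes, in which KDM6A acts, 7 were called higher and 3 lower in midbrain than in hindbrain, beside 25.1% and 24.0% of all genes. Kdm6b, the paralogous demethylase, was higher in midbrain by a log2 fold change of 0.91 ± 0.19 (edgeR adjusted p = 0.00110). For Kdm6a itself midbrain and hindbrain differed by -0.10, with a 95% interval of -0.33 to 0.12.

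Pola1, the gene of the catalytic subunit of DNA polymerase alpha, was higher in hindbrain over all its transcripts. Its hindbrain CPM were 8.78, 10.7 and 8.84 in Fmr1CRE and 9.38, 11.7 and 8.82 in WT mice. Forebrain ranged from 3.70 to 7.91 CPM and midbrain from 4.56 to 7.06, so hindbrain did not overlap with either. The log2 fold change was -0.74 ± 0.16 for forebrain over hindbrain (edgeR adjusted p = 0.00111) and -0.64 ± 0.16 for midbrain over hindbrain (edgeR adjusted p = 0.00356). The primase subunits Prim1 and Prim2, which work in the same complex, were also lower in forebrain than in hindbrain, by -0.70 and -0.41, and Pola2, at -0.26, was not called (edgeR adjusted p = 0.0685). The 10 markers of dividing cells, all with a count in each region, summed to 79.4 to 98.8 CPM in forebrain, 70.3 to 83.4 in midbrain and 78.1 to 99.6 in hindbrain, and their part in the Pola1 difference was not tested. Most Pola1 transcript was assigned to Pola1-202, a 690-base transcript annotated without a coding sequence at the 5′ end of the gene, with 68.3% ± 6.72 of Pola1 TPM in forebrain and 72.2% ± 6.21 in hindbrain. Its mean TPM was 1.11 in forebrain, 1.51 in midbrain and 2.14 in hindbrain. Mean TPM of the coding transcript Pola1-201 was 0.432, 0.624 and 0.613, and so was not higher in hindbrain than in midbrain.

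Pcyt1b, the neighbour of Pola1, did not follow it. Its CPM had a lowest, median and highest value of 32.6, 49.4 and 68.8 in forebrain, 48.6, 56.3 and 65.998 in midbrain and 45.1, 50.9 and 69.8 in hindbrain. All 3 ranges overlapped, and the largest difference, -0.15 for forebrain over midbrain, had a 95% interval of -0.50 to 0.20 (edgeR adjusted p = 0.582). Of 7 other enzymes of phosphatidylcholine synthesis 5 were called lower in forebrain than in hindbrain and 0 higher, beside 25.3% and 26.4% of all genes, and their median log2 fold change was -0.46 against -0.01 over all genes. Among them was the paralogue Pcyt1a, at 49.3 CPM in forebrain and 66.8 in hindbrain (log2 fold change -0.44 ± 0.08, edgeR adjusted p = 0.000227). Chpt1, the cholinephosphotransferase of the last step, stood at 97.4 and 179.5 CPM. Transcripts from both annotated Pcyt1b promoters were found, Pcyt1b-202 from the first, printed above, which starts at chrX base 93654863, and Pcyt1b-201 from a start at base 93675102.

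Hdx, the divergent homeodomain gene, showed little regional difference. Its CPM ran from 7.86 to 14.6 in forebrain, 9.28 to 10.2 in midbrain and 9.31 to 14.99 in hindbrain. The largest difference was -0.30 ± 0.14 for midbrain over hindbrain (edgeR adjusted p = 0.0816), with 1 of 6 mice higher in midbrain. It was called, at -0.38, without Fmr1CRE replicate 1 (edgeR adjusted p = 0.0304), a mouse with 14.6 CPM in forebrain, the highest there, and 9.31 in hindbrain, the lowest there. Without the same mouse forebrain over hindbrain was called as well, at -0.41 (edgeR adjusted p = 0.0187), where all 6 mice gave -0.23 (0.172) and the fit without both mice of replicate 3 gave 0.0017 (0.997). Scaling by total counts alone also gave a call for midbrain over hindbrain (-0.38, edgeR adjusted p = 0.0458), as did reads without length scaling (-0.37, 0.0230).

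Rfx2, the ciliary transcription factor, was the least expressed of the genes in forebrain and midbrain but was measured in every library. Its CPM were 4.502, 4.90 and 4.52 in Fmr1CRE and 4.27, 3.55 and 5.13 in WT forebrain, 3.75, 3.60 and 3.77 in Fmr1CRE and 3.36, 2.86 and 2.81 in WT midbrain, and 3.06, 3.32 and 2.23 in Fmr1CRE and 3.52, 4.13 and 2.02 in WT hindbrain. Forebrain was higher than midbrain in 6 of 6 mice, by a log2 fold change of 0.42 ± 0.16 that missed the threshold (edgeR adjusted p = 0.0823, and 0.0423 on reads without length scaling), and higher than hindbrain in 5 of 6 mice, by 0.55 ± 0.16 (edgeR adjusted p = 0.00972). The latter was not called without WT replicate 3, whose hindbrain value was the lowest (0.36, edgeR adjusted p = 0.0517), or without both mice of replicate 3 (0.29, 0.122). The 12 markers of cells with motile cilia were detected in all regions, with sums of 73.2 to 89.8 CPM in forebrain, 60.4 to 85.0 in midbrain and 48.9 to 76.7 in hindbrain, and their part in the Rfx2 difference was not tested. In its family 7 of 9 relatives passed the filter on low counts. Of these, Rfx1, Rfx3 and Rfx4 were called higher and Rfxank lower in forebrain than in hindbrain, beside 26.4% and 25.3% of all genes. Rfx3, at 53.0 CPM in forebrain and 19.3 in hindbrain, differed by a log2 fold change of 1.46 ± 0.12.

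Pax6, the paired-box factor, was highest in hindbrain over all its transcripts. Its hindbrain CPM were 49.5, 28.9 and 40.2 in Fmr1CRE and 38.4, 39.9 and 27.3 in WT mice. Forebrain held 9.44, 10.7 and 11.1 in Fmr1CRE and 9.38, 12.3 and 12.4 in WT, and midbrain 10.4, 19.8 and 13.5 in Fmr1CRE and 11.9, 14.6 and 19.8 in WT. Every hindbrain library lay above every other. The log2 fold change was -1.78 ± 0.18 for forebrain over hindbrain (edgeR adjusted p = 5.18e-07) and -1.31 ± 0.18 for midbrain over hindbrain (edgeR adjusted p = 1.72e-05), or 3.43-fold and 2.49-fold higher in hindbrain. Midbrain was above forebrain in 6 of 6 mice, at -0.46 ± 0.18, without passing the threshold (edgeR adjusted p = 0.0791).

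The 10 markers of cerebellar granule cells (Gabra6, Cbln3, Neurod1, Zic1 and others) rose with Pax6, from 313 to 446 CPM in forebrain through 659 to 1013 in midbrain to 985 to 1851 in hindbrain. Their part in the Pax6 difference was not tested. Among 8 other paired-box genes 6 passed the filter on low counts, which such genes can pass through the region where they are high, so their calls are not counted here. Pax5 and Pax7, factors of the midbrain, stood at 20.7 and 4.39 CPM there and at 0.980 and 0.237 in hindbrain. In forebrain each of the 6 was under 1 CPM, with Pax5 the highest at 0.608.

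Six3, the anterior homeobox factor, was present in forebrain and midbrain and nearly absent from hindbrain. Its forebrain CPM were 7.82, 23.3 and 16.9 in Fmr1CRE and 20.8, 13.3 and 18.3 in WT mice, and its midbrain CPM 10.7, 13.4 and 7.67 in Fmr1CRE and 10.7, 7.63 and 6.41 in WT. In hindbrain each library held 1 to 4 counts, 11 in all 6, or at most 0.144 CPM. Forebrain exceeded hindbrain 245-fold (95% exact interval 137 to 491, counting error only) and midbrain exceeded it 138-fold (76.9 to 277), with edgeR adjusted p of 1.23e-10 and 1.19e-09. Forebrain over midbrain gave 0.84 ± 0.23 (edgeR adjusted p = 0.0198), higher in 5 of 6 mice. That call was lost without Fmr1CRE replicate 3 (edgeR adjusted p = 0.0789) and without WT replicate 1 (0.0574), 2 (0.0505) or 3 (0.0897), and without both mice of replicate 3 it was 0.63 (0.205).

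The 10 forebrain markers followed the order of Six3 in their summed level given above, and the 10 striatal markers had medians of 1524, 338 and 257 CPM in forebrain, midbrain and hindbrain. Their part in the midbrain level of Six3 was not tested. The 11 relatives of Six3 and their Eya and Dach partners can also pass the filter on low counts through the region where they are high, so their calls are not counted here. Six6, the nearest relative, was listed at 0 in every hindbrain library but reached a mean of only 0.329 CPM in forebrain. Eya1, a partner of Six3-like factors, followed the direction of Six3, at 9.59 CPM in forebrain and 3.16 in hindbrain (log2 fold change 1.66 ± 0.17, edgeR adjusted p = 5.48e-07). Six4 went the other way, at 1.32 and 3.45 CPM.

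Among the 16307 genes with a mean of at least 1 CPM, the likest profiles over the 18 libraries were sought by Pearson's r of log2 CPM, as a description. Six3 was likest to Hpcal4 (r = 0.994) and Kcnf1 (0.993), both of which fell steeply in hindbrain. Pax6 was likest to Hopx (0.968) and Gng13 (0.966), which rose there, and Pola1 to Acsm5 (0.886) and 2700046A07Rik (0.883). Tenm1 was likest to Cntnap5b (0.944) and Ptpre (0.930), and Aff2 to Cand1 (0.964) and Gfpt1 (0.963), all 4 highest in midbrain. Arhgef6 was likest to Minar1 (0.967) and Bcat1 (0.946), Kdm6a to Atad1 (0.907) and Il1rap (0.899), Rfx2 to Helz2 (0.909) and Srsf9 (0.895), Hdx to Mtbp (0.935) and Trmt13 (0.897), and Pcyt1b to E130308A19Rik (0.839) and Ubxn4 (0.802). The libraries share mice and region, and once the region means were removed r fell to 0.647 for Six3 with Hpcal4 and to 0.703 for Pax6 with Hopx, but stayed at 0.907 for Aff2 with Cand1.

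Of 62 other genes of X-linked intellectual disability on the mouse X chromosome, 30 were called higher and 9 lower in forebrain than in hindbrain, and 35 higher and 5 lower in midbrain than in hindbrain, beside 26.4%, 25.3%, 25.1% and 24.0% of all genes, with median log2 fold changes of 0.24 and 0.38 against -0.01 and -0.03 over all genes. Between forebrain and midbrain 6 were higher and 14 lower in forebrain, beside 9.38% and 9.96% of all genes. Of the 7 X-linked genes described here none was called higher in forebrain than in hindbrain, and Tenm1 and Aff2 were called higher in midbrain than in hindbrain.

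The genotype comparison asked whether the 10 genes differed between Fmr1CRE and WT mice within a region, with 3 mice of each genotype. None was called in any region by edgeR's quasi-likelihood test, and none had an unadjusted p under 0.05. Over all genes the same test called 0 of 18467 in forebrain (0.0%, with 1002 or 5.43% at an unadjusted p under 0.05), 1 of 18400 in midbrain (0.00543%, with 1135 or 6.17%) and 0 of 19112 in hindbrain (0.0%, with 981 or 5.13%). DESeq2 called 31, 62 and 59 genes, none of the 10 among them. Of the 10, Six3 could not be tested in hindbrain, where it did not pass the filter.

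**Figure D4:**
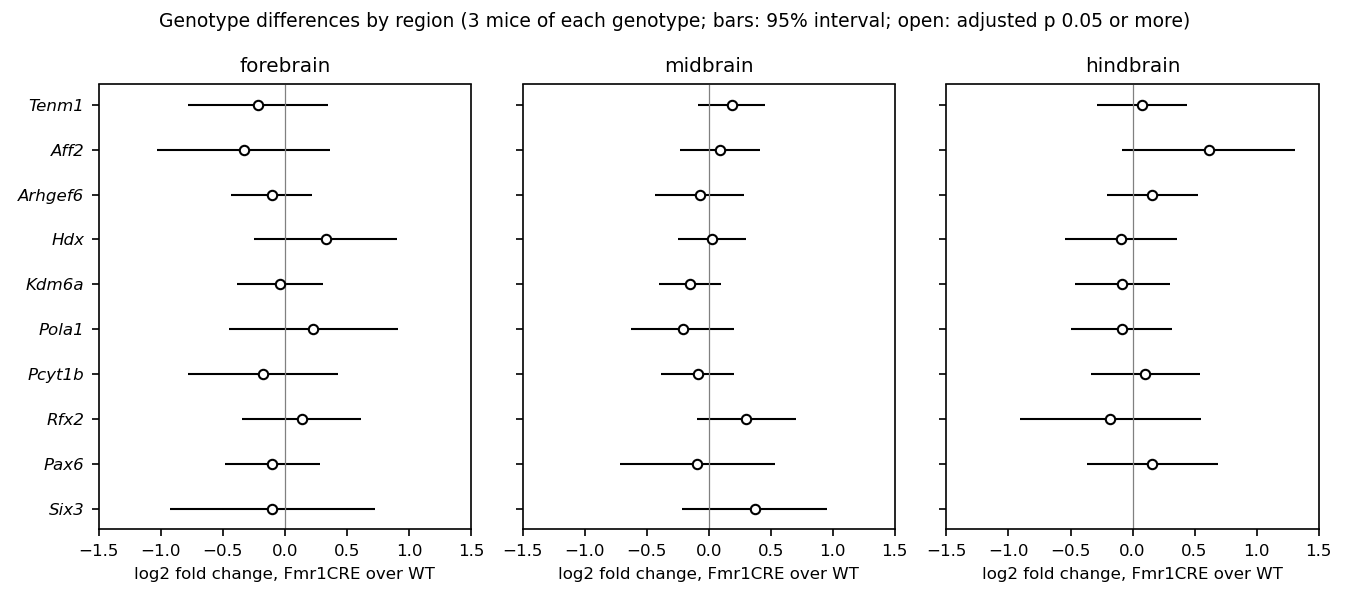
Log2 fold changes of Fmr1CRE over WT for each gene and region with 95% intervals, 3 mice of each genotype. All points are open (adjusted p 0.05 or more) and all intervals include 0, with the widest shift, of 0.61, for Aff2 in hindbrain.

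The largest difference was that of Aff2 in hindbrain, where the Fmr1CRE mice had 7.29, 10.9 and 7.96 CPM and the WT mice 4.34, 4.26 and 8.46. The genotypes overlapped by WT replicate 3 alone, and the log2 fold change was 0.61 ± 0.30, with a 95% interval of -0.08 to 1.31 (edgeR adjusted p = 0.875). Without WT replicate 3 it was 1.004 (edgeR adjusted p = 0.258), and without both mice of replicate 3 it was 1.06 (0.281). In forebrain Aff2 was -0.33, with an interval of -1.03 to 0.36. This value was -0.065 without Fmr1CRE replicate 1, -0.70 without Fmr1CRE replicate 3 (edgeR adjusted p = 0.246) and -0.68 without both mice of replicate 3, and was not called in any of these fits. The genotype by region interaction for Aff2 was not called (edgeR adjusted p = 0.676), nor was that of any other of the 10 genes, where 0.0% of 20363 genes were called and 7.54% had an unadjusted p under 0.05.

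Arhgef6 and Rfx2 had genotypes without overlap in 1 region, as 10.3% of all genes did in forebrain, 11.3% in midbrain and 10.9% in hindbrain. Rfx2 in midbrain had 3.75, 3.60 and 3.77 CPM in Fmr1CRE and 3.36, 2.86 and 2.81 in WT mice (log2 fold change 0.30 ± 0.17, edgeR adjusted p = 0.821). Arhgef6 in forebrain had 9.64, 8.93 and 9.03 CPM in Fmr1CRE and 9.99, 9.96 and 10.5 in WT mice (-0.11 ± 0.14, edgeR adjusted p = 0.873). Tenm1 had log2 fold changes of -0.22 (forebrain), 0.19 (midbrain) and 0.07 (hindbrain), with a widest interval of -0.78 to 0.35. The narrowest intervals were those of Kdm6a, -0.40 to 0.10, and of Tenm1, -0.08 to 0.46, both in midbrain. A difference of 2-fold in either direction lay outside the intervals of every gene and region tested except Aff2 in forebrain and in hindbrain.

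When the 3 regions of each mouse were summed, no gene of the 10 was called either, with log2 fold changes from -0.08 for Kdm6a to 0.15 for Aff2 (edgeR adjusted p = 0.998 for each), where 1 of 22191 genes was called (0.00451%). Without both mice of replicate 3, the lowest adjusted p of the 10 genes was 0.369, 0.509 and 0.281 for the regions from front to back.

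Transcripts were compared by the share each took of its gene's TPM, over 26 transcripts of these genes with at least 10% of the gene. No share differed between regions after adjustment over the 74 tests of an exact sign-flip test on 6 mice, which cannot give less than p = 0.03125, or 0.385 after adjustment here. Tenm1 was carried by Tenm1-203, a 12879-base protein-coding transcript, with 76.3% ± 10.8 in forebrain, 80.8% ± 2.67 in midbrain and 84.2% ± 5.91 in hindbrain. Six3-202 held 89.3% ± 2.53 of Six3 TPM in forebrain and 88.2% ± 1.56 in midbrain. Hdx-201, the shorter coding form, had 79.0% ± 13.4 in forebrain and 97.4% ± 6.26 in midbrain, higher in midbrain in 5 of 6 mice. Pcyt1b-201, the transcript of the second promoter, had 21.3% ± 5.96 in midbrain and 14.8% ± 2.69 in hindbrain, higher in midbrain in 6 of 6 mice (exact p = 0.03125, adjusted 0.385). Pola1-201, the full-length coding transcript, had 27.96% ± 8.24 in forebrain, 28.2% ± 6.51 in midbrain and 20.8% ± 1.59 in hindbrain, lowest in hindbrain in 6 of 6 mice (exact p = 0.03125, adjusted 0.385, against each). With reads of 50 bases from a single end, assignment between transcripts that share exons is uncertain.

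**Figure D5:**
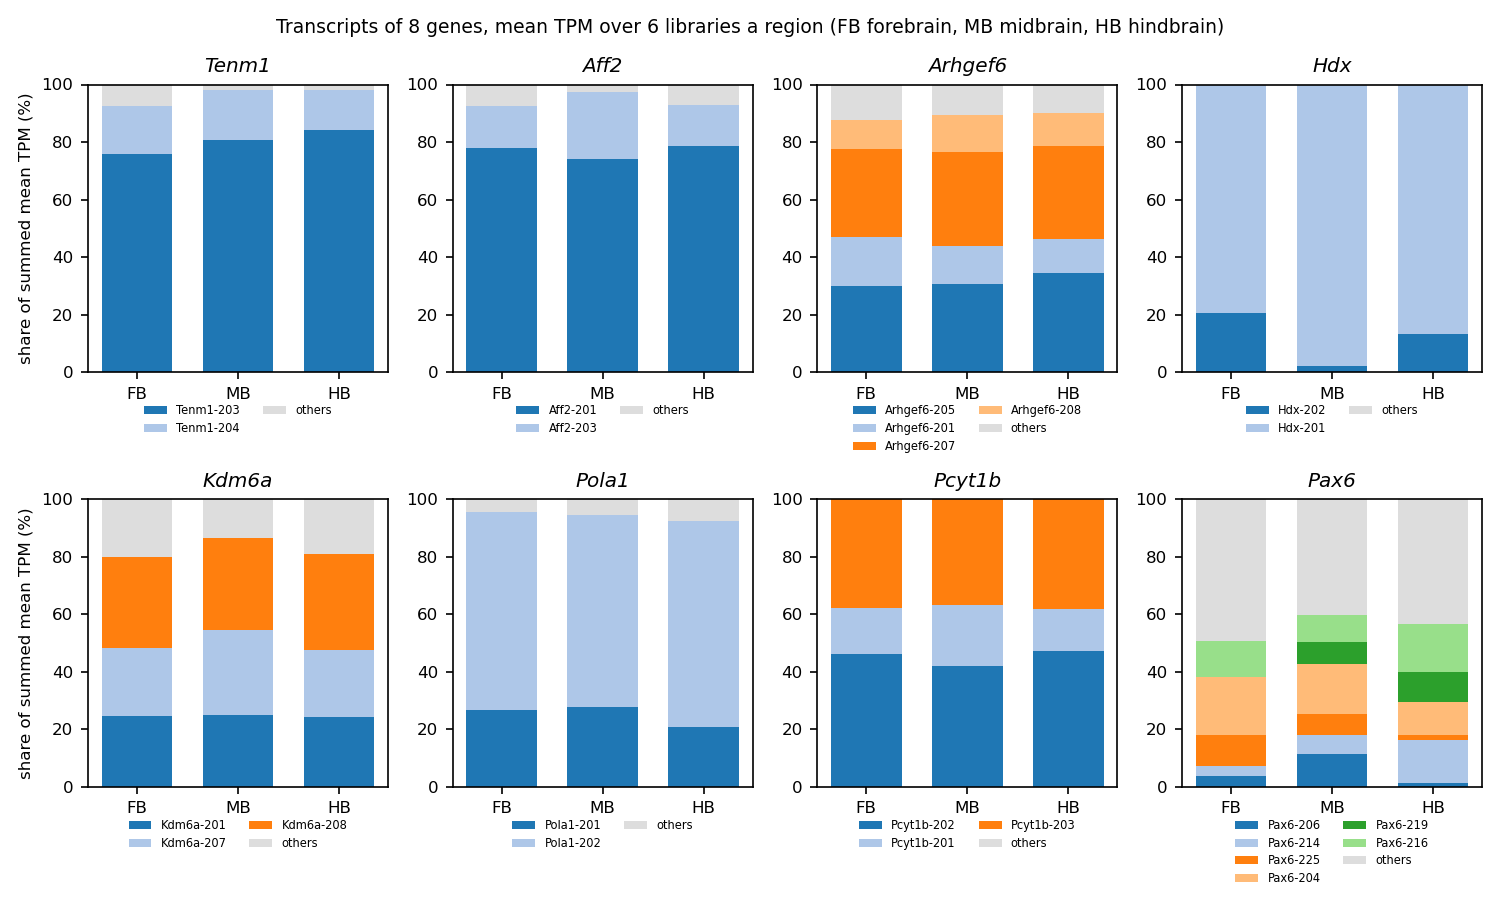
Share of each transcript in the summed mean TPM of its gene by region for 8 genes, with transcripts under 10% pooled in grey. Tenm1-203 and Hdx-201 made up most of their genes in all 3 regions, and Pola1-202, annotated without a coding sequence, most of Pola1.

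Between genotypes 76 shares were set side by side, and the exact test of 3 mice against 3 cannot go below p = 0.10. Genotypes did not overlap in 11 of the 76, among them shares of transcripts of Tenm1, Arhgef6, Pola1 and Pax6, and shares of the same gene depend on each other. The shares below were chosen from these after their values were seen. How often transcripts of other genes stood apart in this way was not tested, so no genotype effect is drawn from the 11. Of whole-gene levels, 10.3% (forebrain), 10.9% (hindbrain) and 11.3% (midbrain) separated Fmr1CRE from WT mice completely. Aff2-201 had 66.1% ± 3.98 in Fmr1CRE and 81.6% ± 11.04 in WT midbrain, and 73.8% ± 5.09 and 87.8% ± 3.84 in hindbrain, while forebrain went the other way, with 81.0% ± 8.13 and 76.6% ± 14.1 and overlapping genotypes. Kdm6a-207, annotated as a 710-base coding fragment, had 26.3% ± 2.25 in Fmr1CRE and 32.3% ± 1.15 in WT midbrain, 19.1% ± 4.27 and 27.5% ± 5.84 in hindbrain, and 24.4% ± 6.58 and 22.1% ± 12.1 in forebrain, where the genotypes again overlapped.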

How the data were processed

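Poly(A) RNA from forebrain, midbrain and hindbrain of 3 Fmr1CRE and 3 WT mice was sequenced by the authors as single-end reads in pools whose libraries are not named, so sequencing pool was not tested. The authors estimated transcript abundance with Salmon 0.14.0 against mm10 and imported it per gene (DESeq2 1.30.1, per the processing notes). The deposited gene table holds expected counts that the authors scaled by transcript length and rounded: rebuilding them from the transcript files gave values 0.144% to 0.258% apart, against 3.85% to 6.48% for plain reads. The deposited transcript files give TPM. They were matched to mice by name, since GEO attaches 16 of 18 to another sample record, and 18 of 18 were closest to the gene column of the same name. A variance-stabilised table was not used. Rows without a symbol held 0.0438% of counts.

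Genes were filtered with filterByExpr, normalized by TMM and tested with edgeR 4.0.16 (quasi-likelihood, R 4.3.3) with Benjamini-Hochberg adjustment at 0.05 over all genes tested. Regions were compared in 1 fit of 18 libraries, where regions from 1 mouse enter as if from different mice, and genotypes within each region. DESeq2 1.42.0 was an alternative, as were other normalizations, no filter, single genotypes, the replicate block and leaving out mice. The labels give a mouse's 3 regions the same mouse, and deviations from group means correlated within a mouse by -0.167 to 0.185. Between genotypes the replicate number is shared in number only (correlation -0.153 to 0.0818). Tested on simulated data, the regional fit of forebrain and hindbrain recovered 93.5% of 200 genes changed by a log2 fold change of 1.5 among 19935, and the genotype fit in hindbrain recovered 81.5% of 200 such genes among 18776. All 10 genes are named throughout, with the 2 genes of likest profile for each and relatives from family lists, and Fmr1. Uty, Xist and the examples named from the lists were chosen after their values were seen. The 10 genes, the lists and the tests were chosen with earlier results of these data known. Replicates are separate mice of 1 litter. Intervals on counts cover counting error only. Single-gene values of some genes in these lists are not reported here.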

Additional observations from a re-analysis of the deposited data

Results flagged for a closer look

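Among the 30 groups of 6 libraries examined (10 genes in 3 regions), 1 value stood far from the others. Kdm6a in the hindbrain of WT replicate 3 was 43.3 CPM, where the other 5 libraries had 28.7 to 32.4, and its gap to the nearest of them was 0.706 of the whole range, above Dixon's 95% critical value for 6 samples. About 1 in 20 groups passes this limit by chance.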

How the results depend on the processing

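Of 966 values of single genes under the alternatives, 24 lost their call, 6 gained one and 81 changed sign. None of the 81 had an adjusted p under 0.05. The calls of Tenm1, Aff2, Arhgef6, Pola1 and Pax6 held without any 1 mouse and without both mice of replicate 3, and those lost by Six3, Kdm6a and Rfx2 are given with their values above. In fits of 1 genotype alone, Tenm1, Aff2, Arhgef6, Kdm6a, Pola1, Rfx2 and Six3 each lost at least 1 call. Of the 10 genes, those called numbered 3 to 4 for forebrain against midbrain, 4 to 6 for forebrain against hindbrain and 5 to 6 for midbrain against hindbrain when each mouse was left out in turn. With WT libraries alone 2 genes, and with Fmr1CRE libraries alone 0, were called between forebrain and midbrain, where each such fit has fewer mice. The replicate block, which held the mouse in the regional fits and the replicate number in the genotype fits, left 4, 6 and 5 of the 10 genes called between regions and 0 by genotype. Over all genes, the count for forebrain against midbrain (3939) fell to 2592 without Fmr1CRE replicate 1, 2258 without WT replicate 1 and 2337 without WT replicate 2, and the interaction count rose from 0 to 131 without both mice of replicate 3. The cause was not tested. Counting depth limits Six3 in hindbrain, where 1 to 4 counts a library were seen.

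In the WT libraries alone the log2 fold change became -0.058 for Hdx (forebrain over midbrain), 0.15 for Tenm1 and 0.012 for Pcyt1b (forebrain over hindbrain), 0.050 for Arhgef6 and -0.12 for Rfx2 (midbrain over hindbrain). In the Fmr1CRE libraries alone the log2 fold change became 0.11 for Pola1 (forebrain over midbrain), -0.42 for Aff2 (forebrain over hindbrain) and -0.12 for Pcyt1b (midbrain over hindbrain). With salmon's estimated reads without length scaling, an alternative chosen after seeing the data, the log2 fold change became -0.021 for Aff2 (forebrain over hindbrain), -0.013 for Pcyt1b (midbrain over hindbrain), 0.034 for Pax6 (genotype in forebrain), -0.12 for Aff2, -0.0083 for Hdx, 0.020 for Kdm6a, 0.099 for Pola1 and 0.028 for Pcyt1b (genotype in midbrain), 0.037 for Kdm6a (genotype in hindbrain), -0.012 for Arhgef6, 0.018 for Kdm6a, 0.033 for Pola1 and 0.054 for Pcyt1b (genotype in the summed regions). With total counts alone as normalization the log2 fold change became -0.036 for Aff2 (forebrain over hindbrain) and -0.065 for Pcyt1b (midbrain over hindbrain). With no filter on low counts the log2 fold change became 0.0085 for Tenm1 (forebrain over hindbrain). With DESeq2 the log2 fold change became -0.00046 for Pcyt1b (midbrain over hindbrain). With DESeq2's size factors in edgeR the log2 fold change became -0.00045 for Pcyt1b (midbrain over hindbrain). For forebrain over midbrain, leaving out 1 mouse at a time or both of replicate 3, it ran from -0.042 to 0.18 for Hdx, from -0.18 to 0.045 for Pola1 and from -0.35 to 0.043 for Pcyt1b. For forebrain over hindbrain, leaving out 1 mouse at a time or both of replicate 3, it ran from -0.13 to 0.15 for Tenm1, from -0.12 to 0.30 for Aff2, from -0.41 to 0.0017 for Hdx and from -0.28 to 0.0021 for Pcyt1b. For midbrain over hindbrain, leaving out 1 mouse at a time or both of replicate 3, it ran from -0.15 to 0.051 for Arhgef6, from -0.14 to 0.0069 for Kdm6a, from -0.092 to 0.18 for Pcyt1b and from -0.045 to 0.27 for Rfx2. For genotype in forebrain, leaving out 1 mouse at a time or both of replicate 3, it ran from -0.57 to 0.015 for Tenm1, from -0.21 to 0.085 for Kdm6a, from -0.44 to 0.039 for Pcyt1b and from -0.48 to 0.22 for Six3. For genotype in midbrain, leaving out 1 mouse at a time or both of replicate 3, it ran from -0.087 to 0.16 for Aff2, from -0.21 to 0.042 for Arhgef6, from -0.021 to 0.051 for Hdx, from -0.19 to 0.025 for Pcyt1b and from -0.37 to 0.20 for Pax6. For genotype in hindbrain, leaving out 1 mouse at a time or both of replicate 3, it ran from -0.062 to 0.21 for Tenm1, from -0.30 to 0.054 for Hdx, from -0.18 to 0.13 for Kdm6a, from -0.18 to 0.042 for Pola1, from -0.058 to 0.35 for Pcyt1b, from -0.43 to 0.037 for Rfx2 and from -0.038 to 0.35 for Pax6. For genotype in the summed regions, leaving out 1 mouse at a time or both of replicate 3, it ran from -0.052 to 0.14 for Tenm1, from -0.15 to 0.087 for Pola1, from -0.11 to 0.039 for Pcyt1b, from -0.032 to 0.12 for Pax6 and from -0.21 to 0.29 for Six3.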
